A study of Homo sapiens with 12 samples.

Results

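The genes described here write, copy, read during copying, or erase DNA methylation: DNMT1, DNMT3A, DNMT3B, UHRF1, UHRF2, TET1, TET2, TET3 and MBD4. They were taken by symbol from a table of 59611 gene symbols, and all 9 were in it. Of these, 8 had enough counts to be tested, as did 15218 symbols in all. TET2 was listed with 0 counts in every library.

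RNA was sequenced from polyA-selected, stranded libraries of 2 human B-lineage acute lymphoblastic leukaemia cell lines. In 697, 3 libraries came from clone BM_B, labelled as a SETD2 heterozygous knockout, and 3 from cells labelled SETD2 wild type that received an empty guide RNA vector. In KOPN-8, 3 libraries came from clone BA with the same label as BM_B, and 3 from cells with the empty vector. The labels name no drug treatment. These groups are called edited and control below. Each edited group is 1 clone, so the edit cannot be told apart from other differences between that clone and its control. Nothing in the labels tells if the controls are clones, and p-values measure only the spread between the libraries of a group.

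SETD2 is the main enzyme that places trimethylation on lysine 36 of histone H3 in transcribed genes. DNMT3A and DNMT3B add methyl groups to unmethylated CpG sites, and their PWWP domains bind methylated lysine 36 of histone H3. DNMT1 copies existing methylation onto the new strand after replication, guided there by UHRF1, while the TET enzymes oxidise methylcytosine and MBD4 excises the thymine left when methylcytosine deaminates. No methylation was measured here, so the values below are messenger RNA levels only.

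Library totals ran from 10378769 to 14350925 counts in edited 697 and from 13432744 to 17163305 in control 697. They ran from 13239627 to 18278662 in edited KOPN-8 and from 13208436 to 17959678 in control KOPN-8. SETD2 messenger RNA was at 206, 211 and 238 CPM (a gene's count scaled to library size) in edited 697, all above the 156, 158 and 169 CPM of control 697 (log2 fold change 0.44, edgeR adjusted p = 0.000103). In KOPN-8 it was at 161, 151 and 162 CPM in the edited clone and at 159, 171 and 177 CPM in the control, which overlapped (-0.10, edgeR adjusted p = 0.309). SETD2 counts were thus not lower in either edited clone beyond the spread of the libraries. All 8 B-lineage markers checked were detected. Of 11 markers of other cell types in the table, CD3D, HBB and EPCAM had no count, and the 11 together summed to 3.53 to 5.36 CPM in edited 697, 2.87 to 5.34 in control 697, 3.07 to 4.54 in edited KOPN-8 and 1.36 to 2.21 in control KOPN-8.

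DNMT1 and UHRF1, the maintenance pair, were the genes whose RNA rose in the edited KOPN-8 clone and whose change differed between the lines, as described below. The call of that difference held for DNMT1 in only 3 of the 12 fits with a library left out. The promoters of both genes are shown because of these calls, from RefSeq on GRCh38.p14. The capitals mark the letters TTTCGCGC or TTTGGCGC, a motif of the E2F family, searched on both strands. For DNMT1 the window was chr19:10194904-10195203 on the minus strand, and for UHRF1 the middle of 3 annotated windows, chr19:4909894-4910193 on the plus strand; both are written 5′ to 3′ along the gene.
DNMT1: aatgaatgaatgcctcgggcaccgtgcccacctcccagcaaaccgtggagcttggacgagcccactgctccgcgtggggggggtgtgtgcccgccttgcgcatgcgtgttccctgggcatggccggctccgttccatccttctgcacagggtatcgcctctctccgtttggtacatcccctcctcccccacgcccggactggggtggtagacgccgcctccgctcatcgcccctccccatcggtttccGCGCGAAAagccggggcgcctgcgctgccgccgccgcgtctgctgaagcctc
UHRF1: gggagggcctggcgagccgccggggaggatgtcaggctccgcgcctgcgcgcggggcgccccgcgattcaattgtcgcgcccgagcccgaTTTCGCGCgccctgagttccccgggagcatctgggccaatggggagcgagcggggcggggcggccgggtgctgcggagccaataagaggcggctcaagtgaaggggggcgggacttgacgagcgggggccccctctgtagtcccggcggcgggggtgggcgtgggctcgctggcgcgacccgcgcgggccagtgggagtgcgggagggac
Each window covers 250 bases before and 50 after an annotated start. The motif began at -2 from the start in DNMT1, on the opposite strand, and at -160 in UHRF1. It was in 403 of 35116 such windows (1.15%), which belong to 382 of 27305 genes (1.4%). None of the windows of the other 7 genes held either of these spellings, nor did the other 2 windows of UHRF1. Other spellings of E2F sites were not searched, so those windows may still hold one. These promoters also differed in CpG content, the substrate of the enzymes themselves. The windows of UHRF1 held 36 to 46 CpG sites per 300 bases and the window of DNMT1 held 30, against a median of 14 over all windows. CpG-rich windows were shared by most of the 9 genes: those of TET3 held 33 to 45, of DNMT3A 18 to 46 and of TET2 13 to 35, and the windows of MBD4 and UHRF2 held 29 and 26. The window of DNMT3B held 3, and those of TET1 held 6 to 11.

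**Figure D1:**
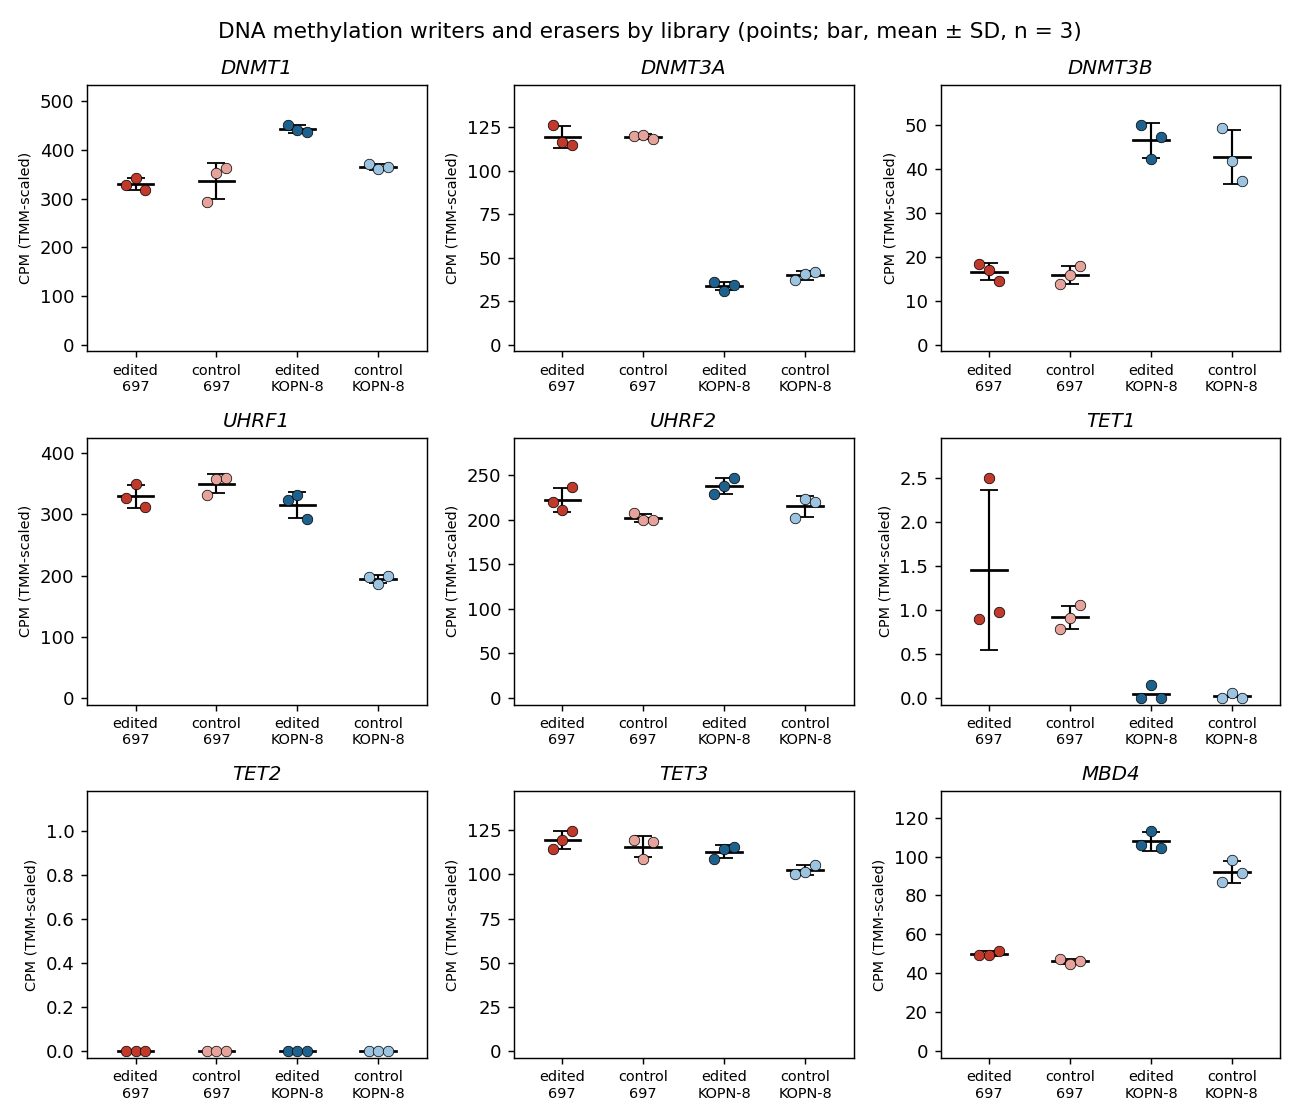
Each panel plots 1 gene, with CPM on the y axis (from 0) and the 4 groups on the x axis; points are libraries and bars the mean ± SD of 3 libraries, with no SD drawn where a group held 3 counts or fewer. UHRF1 sat at 292 to 332 CPM in edited KOPN-8, apart from 187 to 199 CPM in control KOPN-8, and DNMT3A and DNMT3B showed no overlap between the lines.

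Edited KOPN-8 against control KOPN-8 asks how these genes stood in the clone labelled as a heterozygous SETD2 knockout. UHRF1, DNMT1 and MBD4 rose and DNMT3A fell. Thus 3 of 8 tested genes were called higher and 1 lower by edgeR's quasi-likelihood test at a Benjamini-Hochberg adjusted p under 0.05. Among all 15218 genes, 11.5% were called higher and 17.2% lower, 28.7% in all, so calls were common in this comparison. The median log2 fold change of the 8 genes was 0.19, against 0.00 over all genes. It was 0.15 over the 7 genes other than TET1, which had almost no counts in KOPN-8.

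UHRF1 reads hemimethylated CpG sites through its SRA domain and brings DNMT1 to them. It was at 323, 332 and 292 CPM in edited KOPN-8, against 198, 187 and 199 CPM in control KOPN-8. The lowest edited library was far above the highest control library. UHRF1 averaged 316 ± 21.1 CPM in the edited clone and 195 ± 6.94 CPM in the control (SD, n = 3 each), a 1.62-fold rise (log2 fold change 0.70, SE 0.0686, 95% interval 0.56 to 0.84, edgeR adjusted p = 2.03e-08). It ranked 370 of 15218 genes by p, and 83.4% of genes had a change of its size or less. In bulk RNA, more cells expressing the gene and more RNA per cell cannot be told apart.

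DNMT1, the maintenance methyltransferase, was at 452, 441 and 437 CPM in edited KOPN-8, against 372, 360.3 and 365 CPM in control KOPN-8. The groups did not overlap, and each was tight, at 443 ± 8.01 CPM in the edited clone and 365 ± 5.67 CPM in the control (SD, n = 3 each). The rise was 1.21-fold (log2 fold change 0.28, SE 0.0717, 95% interval 0.13 to 0.43, edgeR adjusted p = 0.00436). UHRF1 thus rose more than its partner, and the ratio of UHRF1 to DNMT1, each per kilobase of transcript, was 1.19 ± 0.0708 in edited KOPN-8 and 0.892 ± 0.0231 in control KOPN-8 (SD, n = 3 each). The ratio was higher in every edited library (1.34-fold, two-sided exact permutation p = 0.1, the smallest that 3 against 3 libraries can give; 0.15 after Benjamini-Hochberg adjustment over the 12 ratio comparisons made).

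UHRF2, a paralogue of UHRF1 that does not replace it in maintenance, was at 229, 238 and 247 CPM in edited KOPN-8, against 202, 223 and 220.1 CPM in control KOPN-8. All edited libraries lay above all control libraries, but by little. The difference missed the threshold (log2 fold change 0.15, 95% interval 0.01 to 0.28, edgeR adjusted p = 0.0986). With only the KOPN-8 libraries in the fit it passed (0.16, edgeR adjusted p = 0.0296).

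DNMT3A, a de novo methyltransferase, moved the other way. It was at 35.9, 31.1 and 34.5 CPM in edited KOPN-8, against 37.0, 40.9 and 41.8 CPM in control KOPN-8, and the highest edited library was just below the lowest control library. The mean was 33.8 ± 2.48 CPM in the edited clone and 39.9 ± 2.56 CPM in the control (SD, n = 3 each; log2 fold change -0.24, SE 0.0773, 95% interval -0.40 to -0.08, edgeR adjusted p = 0.0228). This call depended on single libraries. It was lost without edited KOPN-8 replicate 2 (-0.18, edgeR adjusted p = 0.129), without control KOPN-8 replicate 2 (-0.22, adjusted p = 0.0855) or 3 (-0.20, adjusted p = 0.108), and with no filter on low counts (-0.22, adjusted p = 0.0547).

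DNMT3B, the other de novo enzyme, was at 50.1, 42.2 and 47.2 CPM in edited KOPN-8, against 49.4, 41.7 and 37.2 CPM in control KOPN-8. The groups overlapped (log2 fold change 0.13, 95% interval -0.09 to 0.35, edgeR adjusted p = 0.412). The ratio of DNMT3B to DNMT3A per kilobase was 3.01 ± 0.0407 in edited KOPN-8 and 2.37 ± 0.50 in control KOPN-8 (SD, n = 3 each), and the edited libraries, at 2.98 to 3.06, lay just above the control libraries, at 1.95 to 2.92. The exact two-sided permutation test gave p = 0.1, its smallest possible value (0.15 adjusted over the 12 comparisons).

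On the erasing side, TET3 was at 109, 114 and 116 CPM in edited KOPN-8, against 100.1, 101 and 105 CPM in control KOPN-8. Every edited library was higher, yet the difference missed the threshold (log2 fold change 0.14, 95% interval 0.01 to 0.28, edgeR adjusted p = 0.115). It passed with only the KOPN-8 libraries in the fit (0.15, edgeR adjusted p = 0.0391). TET1 had 2 counts in the 3 edited KOPN-8 libraries together and 1 count in the 3 control libraries, so no fold is given.

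MBD4, a glycosylase that acts at deaminated methylated CpG sites, was at 106, 113 and 104 CPM in edited KOPN-8, against 87.1, 98.1 and 91.4 CPM in control KOPN-8. The groups did not overlap, with means of 108 ± 4.75 CPM in the edited clone and 92.2 ± 5.55 CPM in the control (SD, n = 3 each; log2 fold change 0.22, SE 0.0671, 95% interval 0.08 to 0.36, edgeR adjusted p = 0.0138). This call too was lost without edited KOPN-8 replicate 2 (0.19, edgeR adjusted p = 0.0755) and without control KOPN-8 replicate 1 (0.18, adjusted p = 0.0930) or 3 (0.22, adjusted p = 0.0515). Counting TET3 and UHRF2, 6 of 8 tested genes had no overlap between edited and control KOPN-8 libraries, where 45.1% of all tested genes had none.

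In edited KOPN-8, tested genes on chromosomes 8 and 13 were lower as a group, with a median log2 fold change of -0.52 over 512 genes of chromosome 8 and -0.19 over 274 genes of chromosome 13. None of the 9 genes lies on either chromosome. With scaling factors computed without the genes of these chromosomes, UHRF1 was at a log2 fold change of 0.68 (edgeR adjusted p = 2.75e-08). DNMT1 was then at 0.26 (adjusted p = 0.00656), DNMT3A at -0.25 (adjusted p = 0.0153) and MBD4 at 0.21 (adjusted p = 0.0213).

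Edited 697 against control 697 puts the same question in the other line. No gene of the 8 tested passed by edgeR's quasi-likelihood test, where 9.45% of all tested genes did (4.85% higher, 4.6% lower). At an unadjusted p under 0.05 the count was also 0, and DESeq2 called 0. With same-numbered libraries paired, 15.2% of all genes were called but again 0 of these 8. The median log2 fold change was 0.06, against 0.00 over all genes.

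UHRF1 was at 327, 350.1 and 312 CPM in edited 697, against 332, 358 and 359.9 CPM in control 697. The groups overlapped (log2 fold change -0.09, edgeR adjusted p = 0.501), and the 95% interval of -0.23 to 0.05 does not reach the lower bound found in KOPN-8. DNMT1 was at 329, 342 and 318 CPM in edited 697, against 293, 354 and 363 CPM in control 697. These also overlapped, with control replicate 1 the lowest of the 6 libraries (-0.03, 95% interval -0.18 to 0.12, edgeR adjusted p = 0.878).

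DNMT3A was at 126, 116 and 115 CPM in edited 697, against 119.8, 121 and 118 CPM in control 697. DNMT3B was at 18.4, 16.9 and 14.6 CPM in edited 697, against 13.9, 15.9 and 17.9 CPM in control 697. Both de novo genes overlapped between the groups, and their intervals were -0.15 to 0.14 for DNMT3A and -0.19 to 0.34 for DNMT3B on the log2 scale. UHRF2 was at 219.6, 211 and 237 CPM in edited 697, against 208, 199 and 199.9 CPM in control 697. MBD4 was at 49.6, 49.3 and 51.5 CPM in edited 697, against 47.4, 44.8 and 46.4 CPM in control 697. These were the 2 genes of 8 whose groups did not overlap, where 24.1% of all tested genes had no overlap, and neither was called (log2 fold changes 0.14 and 0.12, edgeR adjusted p = 0.225 and 0.362). TET3 was at 114, 119 and 125 CPM in edited 697, against 119.7, 109 and 118 CPM in control 697, which overlapped (0.05, edgeR adjusted p = 0.746).

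TET1, the dioxygenase with a CpG-binding CXXC domain, was the least abundant gene with counts. It had 12, 34 and 10 counts in the edited 697 libraries, against 12, 15 and 14 in the control 697 libraries. Replicate 2 alone of the edited libraries stood above the controls. The fitted log2 fold change was 0.70 with a 95% interval of -0.18 to 1.58 (edgeR adjusted p = 0.354), and it was 0.02 without that library.

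**Figure D2:**
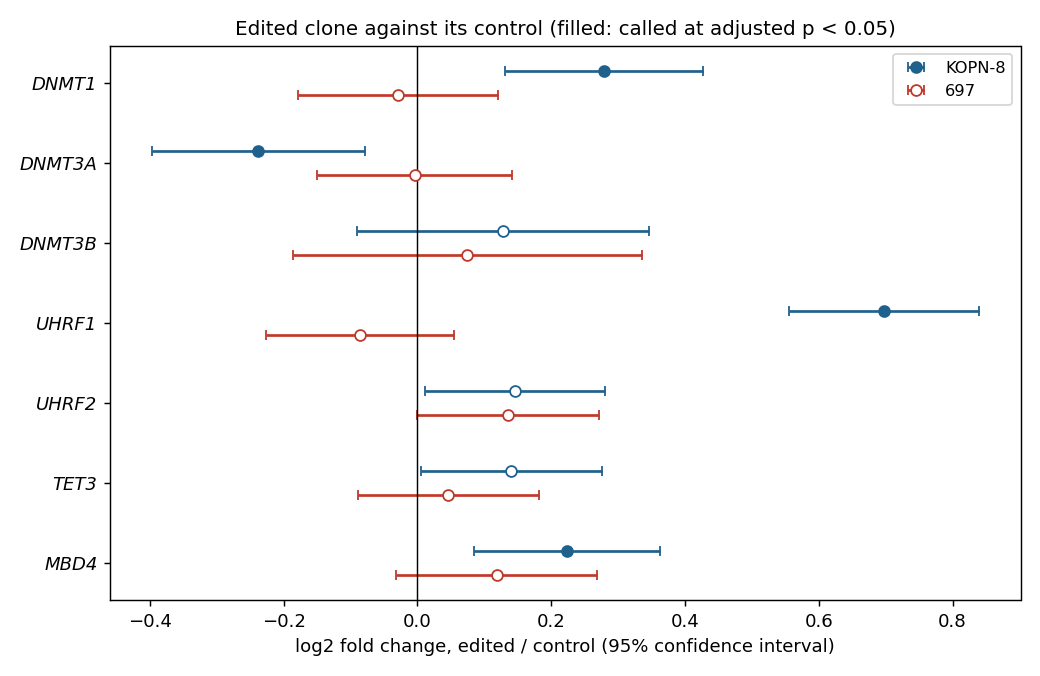
Log2 fold change of edited over control libraries on the x axis for each tested gene on the y axis, in each line; points are edgeR estimates, whiskers 95% intervals, and filled points passed an adjusted p under 0.05. UHRF1 stands at 0.70 in KOPN-8 and -0.09 in 697, and the 697 intervals drawn all cross 0. TET1 and TET2 are left out for want of counts.

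Whether a change differed between the lines was tested as the KOPN-8 change minus the 697 change. UHRF1 and DNMT1 were higher in this difference and none of the other 6 tested genes passed, where 7.46% of all tested genes were higher and 12.1% lower, 19.5% in all. For UHRF1 the difference was 0.78 on the log2 scale (SE 0.0965, edgeR adjusted p = 1.41e-06), and it stayed between 0.75 and 0.85 with any 1 of the 12 libraries left out. For DNMT1 it was 0.31 (SE 0.102, edgeR adjusted p = 0.0342). That call held in 3 of the 12 fits with a library left out, in which the difference ran from 0.27 to 0.40 and edgeR's adjusted p from 0.0016 to 0.0844; it was 0.40 without control 697 replicate 1, the low DNMT1 library. DNMT3A, called in KOPN-8, did not pass here (-0.23, edgeR adjusted p = 0.129), nor did MBD4 (0.11, adjusted p = 0.527). A difference between the lines is therefore not shown for these genes.

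The lines themselves were compared next, over the 7 tested genes other than TET1. Control KOPN-8 against control 697 gave 2 of 7 genes higher (DNMT3B, MBD4) and 3 lower (DNMT3A, UHRF1, TET3), where 36.6% of all tested genes were higher and 36.7% lower, 73.3% in all. Edited KOPN-8 against edited 697 gave 3 higher (DNMT3B, MBD4, DNMT1) and 1 lower (DNMT3A), where 36.5% of all genes were higher and 37.3% lower, 73.7% in all. The libraries did not overlap for 4 of the 7 genes between the edited clones (75.1% of all genes) and for 5 of the 7 between the controls (76.2% of all genes). Differences between the lines were thus common among all genes too.

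The de novo pair ran in opposite directions. DNMT3A averaged 39.9 ± 2.56 CPM in control KOPN-8 and 119.5 ± 1.28 CPM in control 697 (SD, n = 3 each), a log2 fold change of -1.58 (edgeR adjusted p = 1.46e-15). DNMT3B averaged 42.8 ± 6.13 CPM in control KOPN-8 and 15.9 ± 2.0 CPM in control 697 (SD, n = 3 each), a log2 fold change of 1.43 (edgeR adjusted p = 7.29e-11). In the edited clones the differences were -1.81 for DNMT3A (edgeR adjusted p = 1.26e-16) and 1.48 for DNMT3B (adjusted p = 4.29e-11).

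Per kilobase of transcript, DNMT3B stood at 2.37 ± 0.50 times DNMT3A in control KOPN-8 and at 0.292 ± 0.0389 times DNMT3A in control 697 (SD, n = 3 each), an 8.06-fold difference in the ratio. In the edited clones the ratio was 3.01 ± 0.0407 in KOPN-8 and 0.305 ± 0.0229 in 697, a 9.89-fold difference. KOPN-8 libraries thus held more DNMT3B than DNMT3A transcript and 697 libraries the reverse, with no overlap in either comparison (exact permutation p = 0.1 for each, the smallest possible; 0.15 adjusted over the 12 comparisons).

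**Figure D3:**
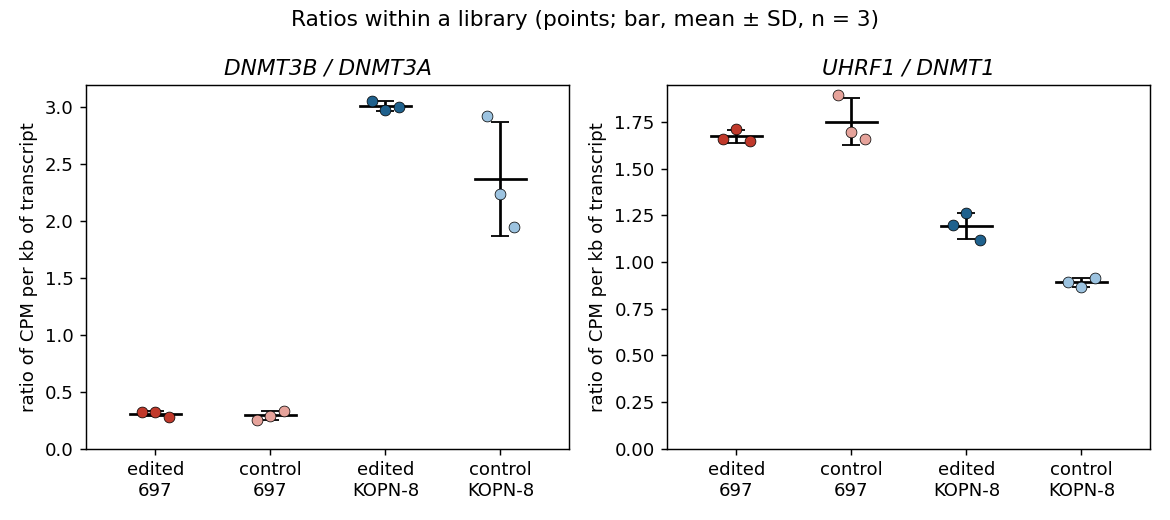
Ratios of CPM per kilobase of transcript within each library on the y axes, for DNMT3B over DNMT3A and for UHRF1 over DNMT1, in the 4 groups; points are libraries and bars the mean ± SD of 3. The DNMT3B to DNMT3A ratio is 1.95 to 3.06 in the 6 KOPN-8 libraries and 0.254 to 0.332 in the 6 libraries of 697.

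UHRF1 was lower in control KOPN-8 than in control 697 (195 ± 6.94 and 350.1 ± 15.7 CPM; SD, n = 3 each; log2 fold change -0.85, edgeR adjusted p = 6.71e-11). In the edited clones it was at 316 ± 21.1 CPM in KOPN-8 and 330 ± 19.1 CPM in 697, which overlapped (-0.06, 95% interval -0.20 to 0.08, edgeR adjusted p = 0.413). A p above the threshold does not show equal levels. DNMT1 was not called between the controls (0.12, edgeR adjusted p = 0.139) and was higher in the edited KOPN-8 clone than in the edited 697 clone (0.43, adjusted p = 1.11e-05).

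MBD4 averaged 92.2 ± 5.55 CPM in control KOPN-8 and 46.2 ± 1.30 CPM in control 697 (SD, n = 3 each), a 2.0-fold difference (log2 fold change 1.00, edgeR adjusted p = 4.35e-12). Between the edited clones it was 2.15-fold higher in KOPN-8 (1.10, edgeR adjusted p = 6.66e-13). TET3 was lower in control KOPN-8 than in control 697 by a small margin (-0.17, edgeR adjusted p = 0.0202). The TET3 call was lost without control KOPN-8 replicate 1 (-0.15, edgeR adjusted p = 0.0808) or 2 (-0.16, adjusted p = 0.0675), without control 697 replicate 1 (-0.15, adjusted p = 0.0666) and with no filter (-0.16, adjusted p = 0.0743). UHRF2 was not called between the lines in the controls (0.09, edgeR adjusted p = 0.228) or in the edited clones (0.10, adjusted p = 0.175).

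TET1 was near 0 in KOPN-8 and low in 697. The control libraries held 1 count in KOPN-8 and 41 in 697, and the edited libraries held 2 counts in KOPN-8 and 56 in 697. With the line of 697 over KOPN-8, the ratio of scaled counts was 44.6 in the controls (95% counting interval 7.57 to 1804) and 37.9 in the edited clones (10.0 to 321). These intervals hold counting error only, leave out the spread between libraries, and are not read as a test. Of the 56 counts in edited 697, 34 came from replicate 2. TET1 passed the filter on low counts through the 697 libraries alone, so no test between the lines is given.

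**Figure D4:**
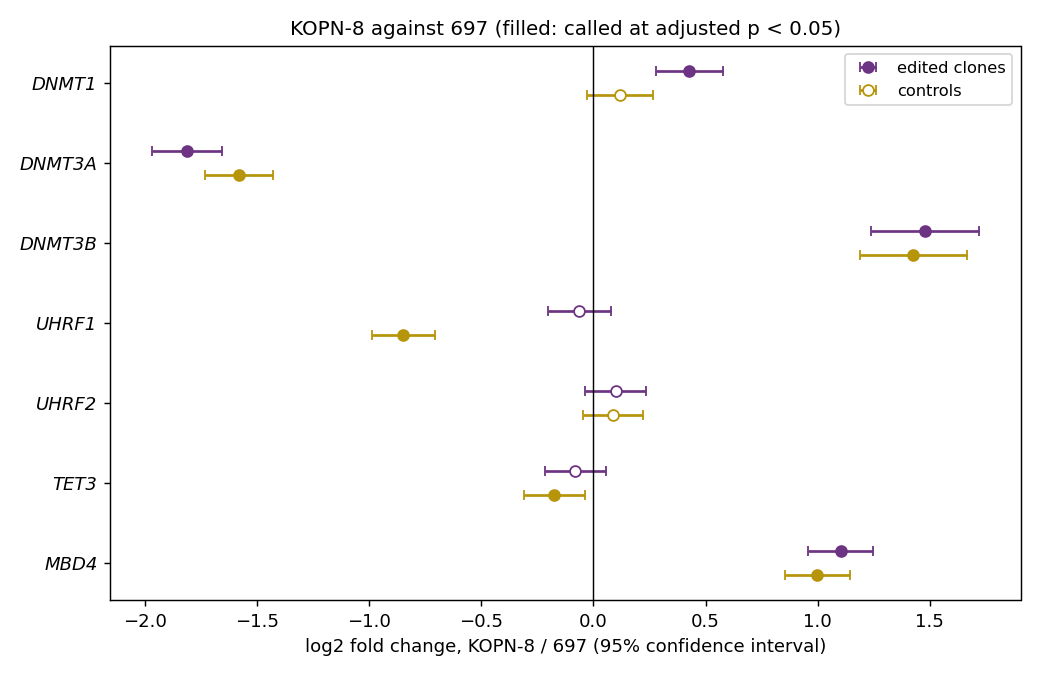
Log2 fold change of KOPN-8 over 697 on the x axis for each gene on the y axis, for the edited clones and for the controls; points are edgeR estimates, whiskers 95% intervals, and filled points passed an adjusted p under 0.05. TET1 and TET2 are left out for want of counts; UHRF1 is at -0.06 between the edited clones and -0.85 between the controls.

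Levels of different genes were compared per kilobase of the principal transcript. UHRF1 led in edited 697 at 102 ± 5.92 CPM per kilobase, in control 697 at 108 ± 4.86 and in edited KOPN-8 at 97.8 ± 6.53 (SD, n = 3 each). In control KOPN-8 it was at 60.3 ± 2.15, beside UHRF2 at 62.3 ± 3.38 and below DNMT1 at 67.6 ± 1.05. DNMT1 and UHRF2 did not separate in 697: they were at 61.0 ± 2.28 and 64.4 ± 3.83 in edited 697, and at 62.2 ± 7.01 and 58.6 ± 1.33 in control 697.

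Below the maintenance genes came MBD4, at 20.3 ± 0.476 CPM per kilobase in edited 697, 18.7 ± 0.525 in control 697, 43.6 ± 1.92 in edited KOPN-8 and 37.3 ± 2.25 in control KOPN-8 (SD, n = 3 each). The next place was taken by DNMT3A in 697, at 12.5 ± 0.666 in edited and 12.6 ± 0.135 in control libraries, ahead of TET3 at 10.5 ± 0.460 and 10.1 ± 0.526. In KOPN-8 the place was shared by DNMT3B, at 10.7 ± 0.916 in edited and 9.86 ± 1.41 in control libraries, and TET3, at 9.91 ± 0.317 and 8.99 ± 0.245. DNMT3A in KOPN-8, at 3.56 ± 0.261 and 4.20 ± 0.270, and DNMT3B in 697, at 3.83 ± 0.436 and 3.67 ± 0.461, came after these. The order at the top depends on the transcript: per kilobase of all annotated exons, UHRF2 was at 20.4 to 24.0 CPM in the 4 groups, below DNMT1. In KOPN-8 it was then also below MBD4 (24.0 against 32.1 in edited and 21.7 against 27.5 in control libraries). UHRF1 in control KOPN-8, at 37.8, was then level with DNMT1, at 37.3. The lead of DNMT3A over TET3 in 697 was also smaller by this length, at 9.91 against 9.73 in edited and 9.94 against 9.42 in control libraries.

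TET2 was listed with 0 counts, so the shares that follow set TET3 against TET1 only and do not place it beside TET2. TET3 carried nearly all counts of TET3 and TET1 together. Its share averaged 98.8% in edited 697, 99.2% in control 697, and at least 99.9% in every KOPN-8 library but one at 99.87%. TET2, which is commonly expressed and often mutated in blood cells, had 0 counts in all 12 libraries, which allows up to 0.159 to 0.292 CPM in a single library and 0.0165 CPM over all of them (3 counts; counting error only). The antisense gene TET2-AS1 had 2 counts. Neither read counter nor annotation is given in the sources used here, so these zeros are given as listed and not as absence of TET2 RNA. The pseudogene UHRF2P1 had 3 counts and TET1P1 had 0, so few reads were assigned to those copies.

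Genes with the most similar pattern were sought for each gene called in KOPN-8, by the root mean square distance of centred log2 CPM over the 12 libraries and 10807 candidate genes. For UHRF1 they were ERGIC1, at 0.10, and NDUFA6, at 0.12, against a median distance of 0.47 over all candidates. ERGIC1, for instance, averaged 736 CPM in edited 697, 704 in control 697, 612 in edited KOPN-8 and 389 in control KOPN-8. For DNMT1 they were POLR2A, which encodes the largest subunit of RNA polymerase II, and ZC3H4, at 0.05 and 0.06. For DNMT3A they were FOXRED2 at 0.08 and PRDX6 at 0.10, and for MBD4 they were KDM6A at 0.05 and TMEM9B at 0.06.

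The wider pathway was read from gene lists. The counts in edited KOPN-8 that follow stand beside 11.5% of all tested genes called higher and 17.2% lower, and those in edited 697 beside 4.85% higher and 4.6% lower. No test of a list against those shares was made, so the counts describe the genes and nothing more is read from them. Among 11 tested partners of maintenance methylation, 2 were higher in edited KOPN-8 and none lower, with a median log2 fold change of 0.10. These were HDAC1, a histone deacetylase that binds DNMT1 (0.30, edgeR adjusted p = 0.000894), and PCNA, the replication clamp that holds DNMT1 at the fork (0.19, adjusted p = 0.0314). The PCNA call was lost in 5 of the 6 fits with a library left out, for example without edited KOPN-8 replicate 2 (0.16, adjusted p = 0.132). In edited 697 edgeR called 0 of the 11, while 2 had an unadjusted p under 0.05 and DESeq2 called 1, all of them higher.

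Maintenance methylation follows replication, and 30 DNA replication genes were tested beside it. In edited KOPN-8 13 were higher and 4 lower, with a median log2 fold change of 0.19, where 11.5% of all tested genes were higher and 17.2% lower. GINS3, a subunit of the replicative helicase, rose by 0.77 (edgeR adjusted p = 2.52e-07), and RFC5, of the clamp loader, by 0.50 (adjusted p = 5.74e-06). MCM4, also of the helicase, fell by 0.60 (adjusted p = 2.3e-07) and lies on chromosome 8, as 3 of the 4 lower genes lie on chromosome 8 or 13. In edited 697, 0 of the 30 were called higher by edgeR (2 at an unadjusted p under 0.05, 0 by DESeq2), and CCNE1, the cyclin of S-phase entry, fell by 0.67 (adjusted p = 0.0198), a call lost without edited 697 replicate 1 (-0.62, adjusted p = 0.0767) or 2 (-0.66, adjusted p = 0.0597) or control 697 replicate 3 (-0.62, adjusted p = 0.0722). The part of proliferation in the UHRF1 and DNMT1 values was not tested.

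Repair genes that act after TET or MBD4 moved in both directions in edited KOPN-8, with 2 of 13 tested higher and 3 lower. POLB, the gap-filling polymerase of base excision repair, fell by 0.61 (edgeR adjusted p = 5.95e-06) and the glycosylase NEIL2 by 0.70 (adjusted p = 0.000112), both from chromosome 8. NEIL1, another glycosylase, rose by 0.80 (adjusted p = 0.000397). In edited 697, 2 were higher: the uracil glycosylase UNG rose by 0.36 (adjusted p = 0.00186), and NEIL2 by 0.45 (adjusted p = 0.0258). The NEIL2 call was lost without edited 697 replicate 1 (0.44, adjusted p = 0.0697) or 2 (0.31, adjusted p = 0.196) and without control 697 replicate 1 (0.39, adjusted p = 0.0891) or 2 (0.46, adjusted p = 0.0553).

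Among 10 tested genes that guide or fuel TET enzymes, 3 were higher and 1 lower in edited KOPN-8. WT1, a zinc-finger protein known to recruit TET2, averaged 79.6 CPM in edited 697 and 78.4 CPM in control 697. It was lower in KOPN-8, at 14.6 CPM in the edited clone and 1.39 CPM in the control (log2 fold change of edited over control KOPN-8 3.38, edgeR adjusted p = 6.21e-08). CXXC5, which binds unmethylated CpG, rose by 0.82 (adjusted p = 1.08e-07). DCAF1, a ubiquitin ligase receptor, was at 0.23 (adjusted p = 0.0144), and lost its call without edited KOPN-8 replicate 3 (0.19, adjusted p = 0.0771) or control KOPN-8 replicate 1 (0.20, adjusted p = 0.0837). In 697 IDH1, an enzyme that makes the TET cosubstrate, was the 1 called gene and fell by 0.34 (adjusted p = 0.0042).

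Proteins that bind methylated or unmethylated CpG sites gave 3 higher and 0 lower of 11 tested in edited KOPN-8, with a median of 0.12. They were MBD2 (0.26, edgeR adjusted p = 0.00816), MBD1 (0.22, adjusted p = 0.0141) and MBD6 (0.49, adjusted p = 0.0158). Each call was lost in at least 1 fit: MBD2 without edited KOPN-8 replicate 1 (0.21, adjusted p = 0.0717), MBD1 without control KOPN-8 replicate 1 (0.21, adjusted p = 0.0503), and MBD6 without edited KOPN-8 replicate 3, where its change was 0.25 (adjusted p = 0.0570), or control KOPN-8 replicate 1 (0.46, adjusted p = 0.0571) or 2 (0.44, adjusted p = 0.0651). In 697 MBD3 was lower (-0.28, adjusted p = 0.0407), and that call was lost in 4 of the 6 such fits, for example without edited 697 replicate 3 (-0.20, adjusted p = 0.204).

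In the methyl donor cycle, 1 of 9 tested genes was higher and 2 lower in edited KOPN-8. AHCYL1, a relative of adenosylhomocysteinase, fell by 0.30 (edgeR adjusted p = 0.000998) and AHCYL2 by 0.41 (adjusted p = 0.00678) in edited KOPN-8; AHCYL2 was not called without control KOPN-8 replicate 2 (-0.34, adjusted p = 0.0585). Of 5 enzymes that methylate lysine 36 of histone H3, 1 was higher and 1 lower in edited KOPN-8. NSD3, on chromosome 8, fell by 0.48 in edited KOPN-8 (adjusted p = 1.79e-06). NSD2 was at 0.17 (adjusted p = 0.0319), and its call was lost in 5 of the 6 fits with a library left out, for example without edited KOPN-8 replicate 1 (0.14, adjusted p = 0.161).

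**Figure D5:**
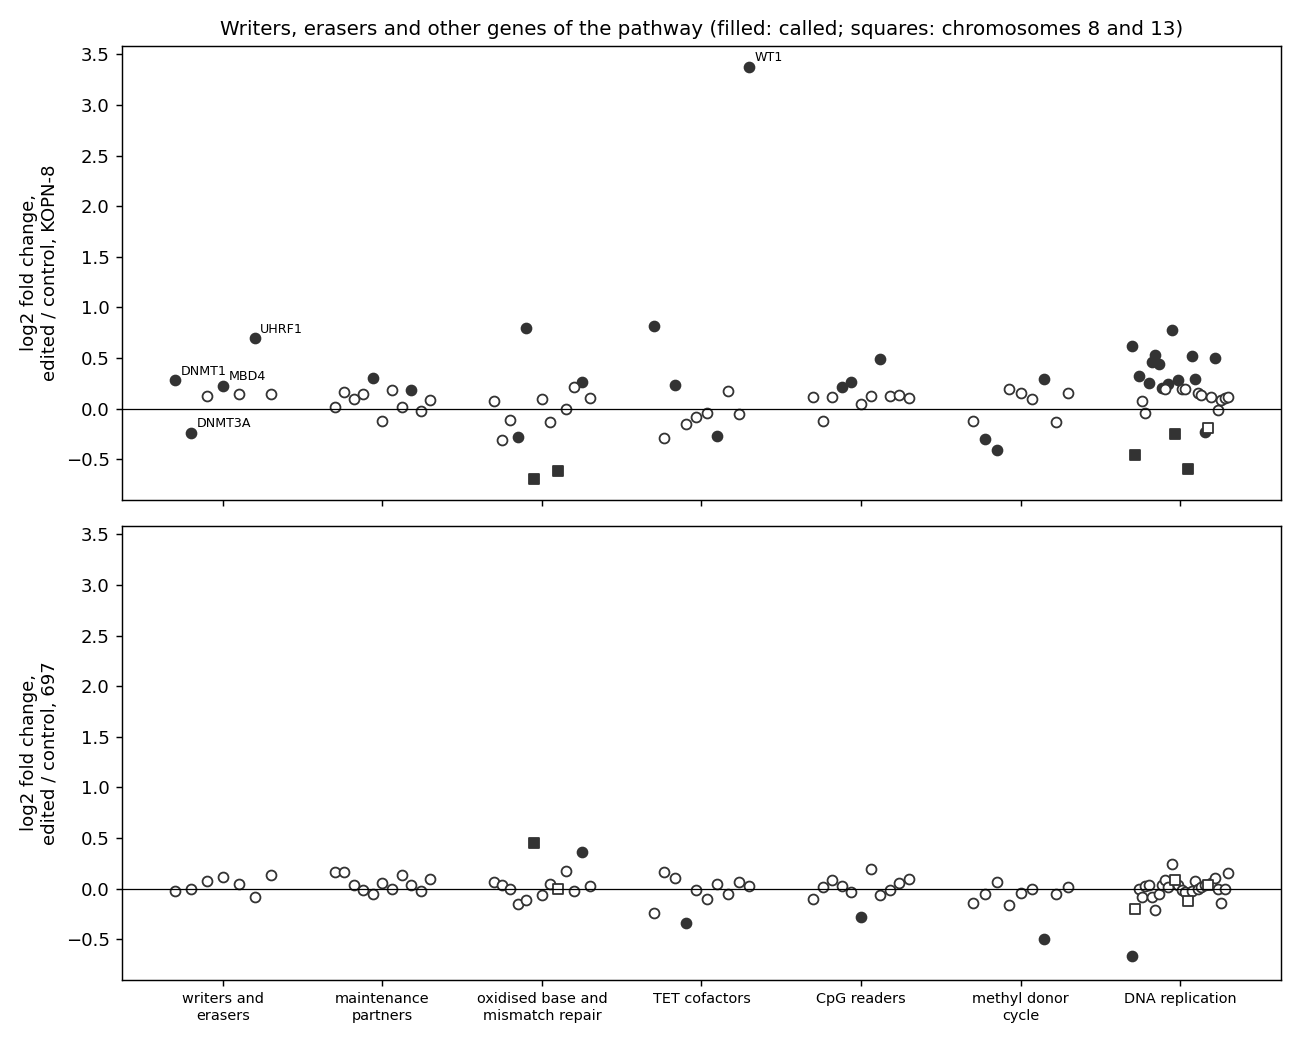
Log2 fold change of edited over control on the y axes, KOPN-8 in the upper panel and 697 in the lower, for each tested gene of 7 gene groups on the x axis; filled points passed an adjusted p under 0.05 and squares lie on chromosome 8 or 13. WT1 is highest at 3.38 in KOPN-8, and UHRF1 is at 0.70 there. TET1 is left out.

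Germline genes that promoter methylation keeps silent in somatic cells were read last. Of 20 such genes, 7 had any count, and all together held 41 counts in edited 697, 44 in control 697, 7 in edited KOPN-8 and 6 in control KOPN-8. STK31 held 33 of these counts in edited 697 and 37 in control 697, with 0 in both KOPN-8 groups. It was the 1 gene of the list with enough counts to be tested, and it was not called between edited and control 697. It passed the filter through 697 alone, so no test in KOPN-8 is given.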

How the data were processed

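RNA-seq libraries (12) of the cell lines 697 and KOPN-8 fell into 4 groups by the labels, 3 libraries each, which the labels call biological replicates without saying how cultures were kept apart. The build was hg19 and the tools named are Trimmomatic, STAR and DESeq2, per the submitters' processing notes. Neither read counter nor annotation is given in the sources used here. The authors deposited raw counts per gene symbol for 59611 symbols, of which 30589 had a count; a second, normalized table was not used.

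Raw counts were fitted over all 12 libraries with edgeR 4.0.16 in R 4.3.3 (TMM scaling, filterByExpr, robust quasi-likelihood test, 1 mean per group). Benjamini-Hochberg adjustment covered the 15218 tested genes, with calls made under 0.05. Raw library totals ran from 10378769 to 18278662 counts, and CPM uses these totals times their TMM factors. Ratios were compared by exact permutation. Alternatives were other scaling, no filter, DESeq2 1.42.0, fits of the compared groups only, a replicate block and leaving out each library. Scaling without chromosomes 8 and 13 was added after seeing the data. The code was tested on simulated data.

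The genes and gene lists were chosen with earlier results of these data known. Beside the 9 genes, the text names SETD2, up to 3 called genes with the smallest p per list and line, and for each of the 9 called in KOPN-8 the 2 genes of most similar pattern. Results on some of these genes are not reported here. Candidates for similarity had a mean of at least 5 CPM, and 0.5 CPM was added before the log. Transcript lengths (longest principal transcript) and chromosomes came from GENCODE on GRCh38, a build other than the submitters', and promoters from RefSeq.

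Same-numbered 697 libraries had deviations from their group means that correlated at r = 0.195, 0.357 and 0.167, all over 0.1. They count as paired on that correlation. Those of KOPN-8, at 0.0807, 0.0863 and 0.130, were not all over 0.1. Each was still above every r between differently numbered KOPN-8 libraries (-0.0925 to 0.00735), so pairing there is undecided. The main fit had no replicate block in either line. Libraries of a group differed beyond sampling noise (chi-square per degree of freedom 2.74 to 9.78).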

Additional observations from a re-analysis of the deposited data

Results flagged for a closer look

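The change in the edited clone differed between the lines for 17 of the genes named. The test was of the KOPN-8 change minus the 697 change on the log2 scale (edgeR, adjusted over all tested genes). It called 19.5% of all tested genes. The flagged genes other than UHRF1, DNMT1 and SETD2 were named because these same libraries gave them a call between edited and control. The count of 17 is thus partly set by that choice, and nothing is read from it. Different clones and lines are compared, so the line, the clone and the edit cannot be told apart. Among the writers and erasers the flagged genes were UHRF1, at 0.78 (edgeR adjusted p = 1.41e-06), and DNMT1, at 0.31 (adjusted p = 0.0342). The DNMT1 call held in only 3 of the 12 fits with a library left out.

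Above 0 were also WT1 at 3.36, CCNE1 at 1.28, CXXC5 at 1.06, GINS3 at 0.53, CD79A at 0.50, RFC5 at 0.40, PAX5 at 0.39, HDAC1 at 0.36 and MBD2 at 0.29. Below 0 were NEIL2 at -1.15, POLB at -0.61, NSD3 at -0.55, SETD2 at -0.54, MCM4 at -0.48 and AHCYL2 at -0.48. NEIL2, POLB, NSD3 and MCM4 lie on chromosome 8, where the median log2 fold change was -0.52 in edited over control KOPN-8 and 0.01 in edited over control 697. The MBD2 difference (adjusted p = 0.0473) was lost in each of several fits with a library left out, for example without edited KOPN-8 replicate 1 (0.24, adjusted p = 0.153), as was that of AHCYL2 (adjusted p = 0.0351), for example without control 697 replicate 3 (-0.38, adjusted p = 0.125).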

How the results depend on the processing

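UHRF1 in KOPN-8 and its difference between the lines kept direction and call in every fit run. Over the writers and erasers, 434 of 474 values under an alternative kept direction and side of the threshold, 20 lost and 4 gained a call, and 16 changed sign, none of the last larger than 0.04 in size on the log2 scale. For the other genes named, 49 of 709 values lost a call and none changed sign.

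With 1 library left out, the 697 change ran from -0.119 to 0.0226 for DNMT1, from -0.049 to 0.0221 for DNMT3A and from -0.012 to 0.158 for DNMT3B, and the difference between lines from -0.0387 to 0.164 for DNMT3B and from -0.0342 to 0.0585 for UHRF2. Under upper-quartile scaling UHRF2 was at -0.0021 in control KOPN-8 against control 697.

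With the replicate block, 2319 genes were called in 697 against 1438 without it. In KOPN-8, same-numbered libraries correlated weakly (r = 0.0807, 0.0863 and 0.130), and whether they pair is undecided. There 5349 genes were called with the block against 4370 without it. Among the 8 writers and erasers 5 were called against 4, UHRF2 being added (edgeR adjusted p = 0.0384). With only the compared groups in the fit, UHRF2 (edgeR adjusted p = 0.0296) and TET3 (adjusted p = 0.0391) were also called in KOPN-8. With no filter DNMT3A was not called there (adjusted p = 0.0547). With 1 library left out, 2 to 4 of the 8 were called in KOPN-8, beside 3422 to 3756 of all tested genes. The 2 were UHRF1 and DNMT1, without edited KOPN-8 replicate 2 or control KOPN-8 replicate 3. For the difference between lines 1 to 2 of the 8 were called, beside 2440 to 3101 of all tested genes. Causes were not tested. Low counts limit TET1, the zeros of TET2 are given only as listed, and 3 libraries of 1 clone limit every comparison.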

Other observations

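B-lineage genes moved in the same comparison as UHRF1. The 8 markers summed to 3496 to 3556 CPM in edited KOPN-8 and 3055 to 3253 CPM in control KOPN-8, and to 2427 to 2747 CPM in edited 697 and 2404 to 2754 CPM in control 697. In edited KOPN-8, 5 of 8 were higher and 1 lower, among them the B-cell transcription factors PAX5, at a log2 fold change of 0.44, and EBF1, at 0.41 (edgeR adjusted p = 6.66e-06 and 2.71e-05). In edited 697, EBF1 was higher at 0.29 and CD79A, of the B-cell receptor, lower at -0.49 (adjusted p = 0.00482 and 0.00106). LYZ, a myeloid marker, averaged 2.97 CPM in edited KOPN-8 and 0.522 CPM in control KOPN-8 (log2 fold change 2.48, edgeR adjusted p = 2.88e-05). The myeloid marker MPO had 1 count in all libraries. LYZ was the 1 gene called of 3 tested markers of other cell types, whose median log2 fold change in edited KOPN-8 was -0.89. The 2 not called, the myeloid marker CSF1R and COL1A1, thus had estimates below 0. The part of these genes in the UHRF1 and DNMT1 values was not tested.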
